A study of Homo sapiens with 4 samples.

Results

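The transcript response of SK-MEL-28 cells to an siRNA for ZIC5 was read from 2 of the 4 arrays of the series: 1 from SK-MEL-28 cells given the ZIC5 siRNA and 1 from SK-MEL-28 cells given a negative control siRNA. SK-MEL-28 and A375, the line on the other 2 arrays, are established human melanoma cell lines, and each received either siRNA, with RNA collected after 48 h. Every group held 1 array (HG-U133 Plus 2.0, an Affymetrix whole-transcriptome array), made from 100 ng of total RNA. The labels do not give the siRNA sequences, how many siRNAs were used, or which culture each RNA came from. Each gene was read on its brightest probe set, a set of short probes that names that gene alone, and a gene was analysed if its log2 intensity averaged at least 5 (intensity 32) over the 4 arrays. These were 13794 of 19775 genes, or 69.8%. A difference is log2 intensity under ZIC5 siRNA less its value under control siRNA, so a difference of 1 is 2-fold. With 1 array a side there is no replicate check, no difference was tested and no p-value is given. Genes are described by size, with at least 2-fold as the size rule. RNA of a whole culture was measured, so fewer cells of one state and less RNA per cell cannot be told apart.

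ZIC5 belongs to the ZIC family of zinc-finger transcription factors, which is known for its part in neural crest development, the embryonic source of pigment cells. Several programmes that melanoma cells switch between appear in the results. When amino acids run short or translation initiation is restrained, the transcription factor ATF4 switches on genes for amino acid synthesis, amino acid uptake and tRNA charging. When cells spread on a stiff surface, YAP and TAZ enter the nucleus, bind TEAD factors and switch on matricellular, cytoskeletal and adhesion genes. The control cells carried the transcripts of the melanocyte lineage: MLANA intensity was 18212 and 17273 on the control and ZIC5 siRNA arrays, that of the melanosome matrix protein PMEL was 10484 and 10317, that of the lineage factor MITF was 6205 and 5089, and that of the lineage factor SOX10 was 2135 and 1919. All 8 analysed markers of the lineage were within 1.5-fold on both arrays. Of the markers of other cell types, 4 of 7 epithelial, 3 of 7 fibroblast, 3 of 6 endothelial and 3 of 7 leukocyte genes were at the level minimum. The brightest of each list on the control array were KRT18 (420.4 and 433 on the control and ZIC5 siRNA arrays), LUM (875 and 498), PECAM1 (71.8 and 71.8) and CD3E (59.8 and 54.0), and none of these 13 genes differed by 2-fold. EPCAM of epithelia, PTPRC of leukocytes and CDH5 of endothelium were under the minimum. The median intensity over all probe sets was 38.8 on the control array and 38.4 on the ZIC5 siRNA array.

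The targeted gene gave no check on the labels. ZIC5 intensity was 21.4 under control siRNA and 15.5 under ZIC5 siRNA, a difference of -0.47, with both values under the intensity of 32 that marks the level minimum. Of the other family members, ZIC2 had 78.6 under control siRNA and 64.6 under ZIC5 siRNA, a difference of -0.28, and ZIC1 had 369 and 433, a difference of 0.23. Both lay within 1.5-fold. The growth factor PDGFD, a ligand of the PDGF receptor beta, had 366 under control siRNA and 107 under ZIC5 siRNA and was 3.44-fold lower. It was the only 1 of 6 analysed PDGF ligands and receptors past the size rule (16.7% lower, against 2.12% of all genes). The next lowest was PDGFC at -0.68, or -0.09 with intensities under 32 set to 32. The receptor PDGFRB had 41.4 and 41.7 on the control and ZIC5 siRNA arrays, a difference of 0.01.

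Most transcripts of SK-MEL-28 were close to equal on both arrays. The difference was within 1.2-fold for 62.4% of genes, and the 5th and 95th percentiles of the differences were -0.66 and 0.55 around a median of 0.00. With ZIC5 siRNA, 107 genes (0.776% of those analysed) were higher by the size rule and 292 (2.12%) were lower by it. The lower side was also the longer one, with 59 genes at 3-fold or more against 12. Where a gene had several probe sets at the level minimum, all of them had the same sign for 58 of 67 higher genes and for 122 of 160 lower genes. All of them were past the size rule for only 18 and 39 of these genes. A number of probe sets given beside a gene counts those with the sign of the printed difference, which is that of the brightest probe set. Mixed signs are given beside the genes named, and were also found for ACTB, CDK2, CTNNB1, FGFR1, MFNG, MLANA, MMP14, MTOR, NT5E, PAX3, PHB1, SOCS3, STC2, TNC and TRAPPC13. Among genes with several probe sets, their SD had a median of 0.15, which describes probe differences within these 2 arrays and not replicate spread. The size rule cuts through a continuum: CDKN1B at 1.002 and TRAPPC13 at -1.001 were just inside it, and PLXNA2 at 0.996 and MFNG at -0.99 just outside.

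**Figure D1:**
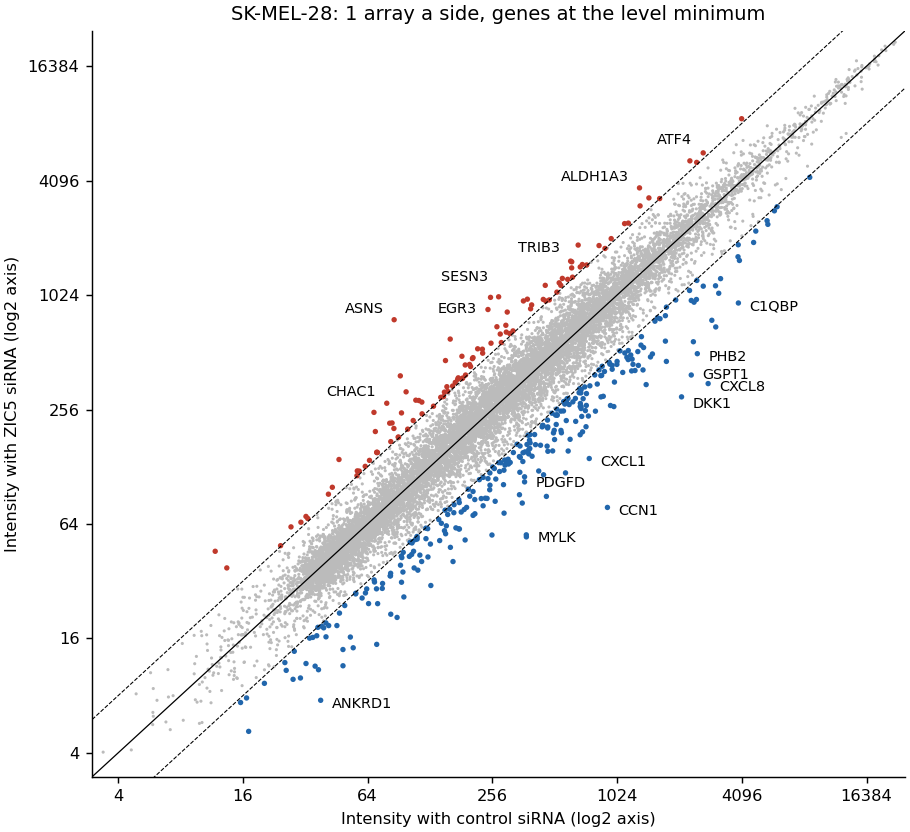
Intensity of each of the 13794 analysed genes in SK-MEL-28 with control siRNA (horizontal) and with ZIC5 siRNA (vertical), both on log2 axes, with 1 point per gene and dashed lines at 2-fold. Red points (107 genes) are at least 2-fold higher and blue points (292 genes) at least 2-fold lower with ZIC5 siRNA, and ASNS and CCN1 lie farthest from the diagonal on their sides.

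The genes of the ATF4 programme and of amino acid supply were the most frequent group among the 2-fold higher genes with a list. Across the 5 lists of this programme, 15 analysed genes were at least 2-fold higher and 60 were not, against 0.776% higher of all genes. Asparagine synthetase (ASNS), which makes asparagine from aspartate, led all genes. ASNS intensity was 86.0 under control siRNA and 759.7 under ZIC5 siRNA, 8.83-fold higher. CHAC1, an enzyme that degrades glutathione, had 79.2 and 276 on the same arrays and was 3.49-fold higher. Both are textbook targets of ATF4, which binds a composite CEBP-ATF element. Their promoters are shown because both hold that element's letters, TGATGNAA, in capitals on either strand, within the window from 250 bases before to 50 after the gene start (RefSeq, GRCh38.p14). The ASNS window is chr7:97872359-97872658, minus strand, with the match starting 68 bases before the start. The CHAC1 window is chr15:40953221-40953520, plus strand, with the match on the other strand 209 bases before the start.
ASNS: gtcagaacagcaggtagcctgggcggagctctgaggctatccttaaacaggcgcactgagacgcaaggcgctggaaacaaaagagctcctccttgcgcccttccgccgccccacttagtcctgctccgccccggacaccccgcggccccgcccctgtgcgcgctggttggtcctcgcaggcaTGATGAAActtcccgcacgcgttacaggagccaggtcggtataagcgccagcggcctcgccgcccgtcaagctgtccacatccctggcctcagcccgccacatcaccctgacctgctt
CHAC1: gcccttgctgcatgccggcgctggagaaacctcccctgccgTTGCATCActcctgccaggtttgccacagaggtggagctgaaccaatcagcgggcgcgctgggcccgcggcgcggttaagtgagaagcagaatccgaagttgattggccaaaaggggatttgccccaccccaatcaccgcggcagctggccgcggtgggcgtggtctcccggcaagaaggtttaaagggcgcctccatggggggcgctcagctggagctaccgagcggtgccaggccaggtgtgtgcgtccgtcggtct
The letters TGATGNAA were found in 3.67% of all 27305 promoters of the table and in 1.98% of those of analysed genes. Of the 2-fold higher genes with a promoter entry, 3 of 92 held them (ASNS, CHAC1 and HRK), and of the 2-fold lower genes 9 of 242. Within the 5 ATF4 and amino acid lists, 2 of 13 genes that passed the size rule and 14 of 49 that did not held a match. A match is a description of the letters in this window only.

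Among the regulators, ATF4 itself had 2667 under control siRNA and 5731 under ZIC5 siRNA, 2.15-fold higher, at an already high level. Its dimer partner CEBPG had 175 and 376 on the control and ZIC5 siRNA arrays and differed by 1.10, its other probe set by 0.52. The pseudokinase TRIB3, a feedback inhibitor of ATF4, had 611 and 1545, a difference of 1.34, and the stress regulator NUPR1 had 69.8 and 196, a difference of 1.49. These were the 4 of 15 regulators past the size rule. The pro-apoptotic factor DDIT3 (CHOP) was higher by 0.72 and ATF3 by 0.64, the latter on 1 of its 2 probe sets. Some regulators were not on this side: CEBPB differed by -0.02, the phosphatase subunit PPP1R15A (GADD34) by -0.01 on a gene whose 2 probe sets had opposite signs, and ATF5 by -0.42 on 3 of 4 probe sets. Of the kinases that start the response, the amino acid sensor EIF2AK4 (GCN2) had 409 and 278, a difference of -0.56, and the endoplasmic reticulum sensor EIF2AK3 (PERK) had 810.5 and 1136, a difference of 0.49. Of the 15 regulators 8 were higher and 7 lower, and the list median was 0.13, against 0.00 over all genes.

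Downstream effectors of ATF4 had a median of 0.61, the highest of the lists with 5 or more genes analysed. Of 13 effectors, 12 were higher and 5 passed the size rule. SESN2, a sestrin that restrains mTORC1, had 81.9 under control siRNA and 217 under ZIC5 siRNA, a difference of 1.41. DDIT4 (REDD1), another restraint on mTORC1, was higher by 1.15, HERPUD1, a component of endoplasmic reticulum protein disposal, by 0.81, and the stress cytokine GDF15 by 0.61. VLDLR and ADM2 differed by only 0.09 and 0.14, and STC2 by -0.08. The related sestrin SESN3, which is also a FOXO target, had 275 under control siRNA and 1003 under ZIC5 siRNA, a difference of 1.87, while SESN1, a p53-regulated sestrin, had 162 and 102, a difference of -0.67. The 3 sestrins therefore did not differ in one direction. The arginine sensor CASTOR1 was higher by 0.96 and the mTORC1 substrate AKT1S1 by 0.89, both under the size rule, whereas MTOR and RPTOR differed by 0.09 and 0.06.

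Amino acid synthesis was higher mainly at serine, glycine, cysteine and asparagine. PHGDH, which commits glycolytic carbon to serine, had 1114 under control siRNA and 2434 under ZIC5 siRNA, a difference of 1.13. The later steps were PSAT1 at 0.77 and PSPH at 1.04, so all 3 enzymes of the route were higher and the first and last passed the size rule. The mitochondrial folate enzyme MTHFD2 was higher by 1.19 and the serine hydroxymethyltransferase SHMT2 by 0.57. The transsulfuration enzymes, which turn homocysteine into cysteine, were both past the size rule: CBS had 93.3 and 246 on the control and ZIC5 siRNA arrays, a difference of 1.40 with probe sets from 0.26 to 1.61, and CTH had 362 and 954, a difference of 1.40. Proline enzymes differed less, with PYCR1 at 0.38 and ALDH18A1 at -0.04, and so did the aminotransferases GOT1 at 0.12 and GOT2 at -0.02. GLUL, which makes glutamine, was the exception on the low side, with 46.8 under control siRNA and 21.8 under ZIC5 siRNA, a difference of -1.11, or -0.55 with intensities under 32 set to 32. In all, 12 of 16 enzymes were higher, 6 at least 2-fold, and the median was 0.47.

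Amino acid transporters were higher in 13 of 16 cases, but with smaller differences and a median of 0.36. Only SLC36A1, a proton-coupled carrier of the lysosome, passed the size rule, with 299 under control siRNA and 654 under ZIC5 siRNA, and its other probe set was at 0.05. The sodium-coupled neutral carriers SLC38A2 and SLC38A1 were higher by 0.78 and 0.68, the glutamine carrier SLC1A5 by 0.73, the cystine carrier SLC7A11 by 0.67 and the leucine carrier SLC7A5 by 0.63. The arginine carrier SLC7A1 differed by 0.03, and the glutamate carrier SLC1A3 by -0.64. Cytosolic aminoacyl-tRNA synthetases, which load tRNAs, were higher in 13 of 17 cases with a median of 0.30. GARS1 for glycine had 2481 under control siRNA and 5107 under ZIC5 siRNA, a difference of 1.04, and WARS1 for tryptophan had 920.2 and 1808, a difference of 0.97. Their mitochondrial counterparts had a median of -0.09, with 7 of 15 higher and none at 2-fold, from PARS2 at -0.93 to HARS2 at 0.41. PCK2, the mitochondrial enzyme that makes phosphoenolpyruvate and another known ATF4 target, was 2.18-fold higher, with 155 and 338 on the control and ZIC5 siRNA arrays.

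Genes of protein folding in the endoplasmic reticulum lay on the other side of zero. Of 28, 20 were lower, with a median of -0.27, although 1 alone was 2-fold lower (3.57%, against 2.12% of all genes). HSPA5 (BiP), the main chaperone of this compartment, had 7619 under control siRNA and 6097 under ZIC5 siRNA, a difference of -0.32. MANF differed by -0.79, PDIA4 by -0.59, HYOU1 by -0.44, SDF2L1 by -0.41 and HSP90B1 by -0.35. All of these were within 2-fold, and the IRE1 target DNAJB9 and the factor XBP1 were higher by 0.26 and 0.16. The 1 gene past the size rule was SELENOF, a selenoprotein that works with the glycoprotein folding sensor, with 2392 under control siRNA and 582 under ZIC5 siRNA, a difference of -2.04.

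**Figure D2:**
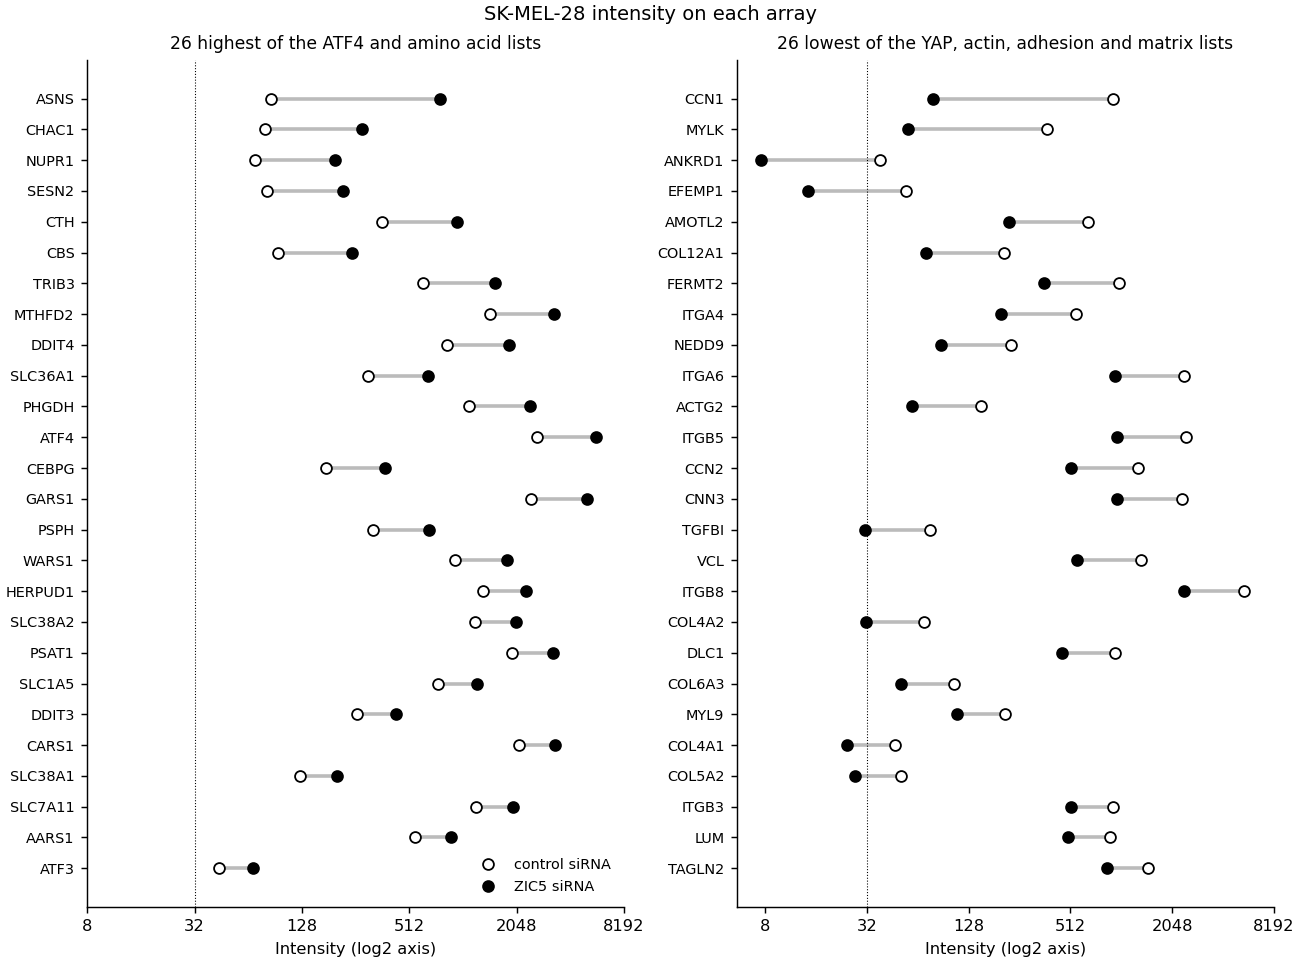
SK-MEL-28 intensity on each array (log2 axis) for the 26 genes with the highest differences among the ATF4 and amino acid lists (left) and the 26 with the lowest among the YAP/TAZ, actomyosin, adhesion, integrin and matrix lists (right), with open circles for control siRNA, filled circles for ZIC5 siRNA and a dotted line at intensity 32. The genes were picked by their differences, and on the right 6 genes, among them ANKRD1 and EFEMP1, end under 32, where values are near the low end of the scale.

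Targets of YAP and TAZ had the lowest median of the lists with 5 or more genes analysed, -0.54 over 22 genes. Of these, 17 were lower, and none was past the size rule on the high side. On the low side 5 were past it (22.7% of the list, against 2.12% of all genes). CCN1 (CYR61), a secreted matricellular protein that binds integrins, had 920.2 under control siRNA and 78.2 under ZIC5 siRNA, 11.8-fold lower, and was the lowest of all genes, with its probe sets from -3.56 to -2.85. Its relative CCN2 (CTGF) had 1289.9 and 517 and was 2.50-fold lower. The angiomotin-like protein AMOTL2, which restrains YAP in feedback, had 647 and 222, a difference of -1.54. ANKRD1, a nuclear ankyrin repeat protein often used to read YAP activity, had 38.0 under control siRNA and 7.57 under ZIC5 siRNA, a difference of -2.33, but -0.25 with intensities under 32 set to 32. DLC1 was at -1.05, the feedback kinase LATS2 at -0.69, the coagulation receptor F3 at -0.61 and the ectonucleotidase NT5E at -0.58. On the high side were GADD45B at 0.61 and AMOTL1 at 0.55, both under the size rule. With intensities under 32 set to 32 the list median was -0.36.

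The transcripts of the pathway itself were not lower as a group. YAP1 had 1005 under control siRNA and 1046 under ZIC5 siRNA, a difference of 0.06, and TAZ (WWTR1) had 5227 and 6875, a difference of 0.40. TEAD4 differed by 0.08, and TEAD1 by -0.34 on a gene of which 1 of 3 probe sets had that sign. VGLL4, which competes with YAP for TEAD factors, had 521 and 768 and was higher by 0.56. The kinases STK3, STK4 and LATS1 were at 0.18, 0.39 and 0.09, and none of the 16 members passed the size rule.

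Promoters of CCN2 and ANKRD1 are shown because they hold the TEAD letters GGAATG, in capitals where a script found them on either strand, more than once. The CCN2 window is chr6:131951323-131951622, minus strand, with matches starting 169, 104 and 95 bases before the gene start. The ANKRD1 window is chr10:90921038-90921337, minus strand, with matches 220 and 128 bases before it.
CCN2: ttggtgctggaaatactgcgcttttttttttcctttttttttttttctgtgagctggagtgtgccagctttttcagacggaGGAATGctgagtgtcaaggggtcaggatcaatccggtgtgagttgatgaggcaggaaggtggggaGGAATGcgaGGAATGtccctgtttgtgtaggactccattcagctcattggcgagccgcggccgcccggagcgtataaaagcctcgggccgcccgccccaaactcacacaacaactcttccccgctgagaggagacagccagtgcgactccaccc
ANKRD1: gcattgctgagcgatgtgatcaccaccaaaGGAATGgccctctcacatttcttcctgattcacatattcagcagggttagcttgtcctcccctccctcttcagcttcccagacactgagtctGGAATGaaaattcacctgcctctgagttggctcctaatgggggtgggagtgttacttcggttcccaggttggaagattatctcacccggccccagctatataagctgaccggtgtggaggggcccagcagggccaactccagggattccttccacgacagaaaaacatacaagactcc
So short a run of letters is common: it was in 14.05% of all promoters of the table and 11.1% of those of analysed genes (RefSeq, GRCh38.p14). It was in 37 of 242 promoters of 2-fold lower genes (15.3%) and in 3 of 92 of 2-fold higher genes (3.26%). In the YAP/TAZ list it was in 5 of 15. Of the 25 lowest genes, 7 of the 21 with an entry held it: ANKRD1, C1QBP, DKK1, LOC101928419, MYLK, OCRL and UHMK1. CCN1, the lowest of all genes, had no promoter entry and was not searched. The AMOTL2 window was searched and held no match.

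Contractile and adhesion genes were lower at selected members. MYLK, the kinase that phosphorylates myosin light chains to start contraction, had 374 under control siRNA and 56.1 under ZIC5 siRNA, 6.65-fold lower. The regulatory light chain MYL9 had 209 and 109 on the control and ZIC5 siRNA arrays, a difference of -0.95, and the related MYL12A differed by -0.73. The actin-binding calponin CNN3 had 2336 and 959, a difference of -1.28, and the gamma smooth muscle actin ACTG2 had 150.5 and 59.0, a difference of -1.35 against -0.34 on its other probe set. Of 31 actomyosin genes and targets of serum response factor, 23 were lower. The size rule was passed by 4, all lower (12.9%, against 2.12% of all genes). These include vinculin (VCL), which is also counted with the focal adhesions. Abundant core components hardly differed, with ACTB at -0.03, CFL1 at -0.13 and MYH10 at 0.02. The factors SRF and MRTFA were at -0.07 and -0.14, each with probe sets of both signs, and MRTFB was at -0.64.

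In focal adhesions, the sites where integrins connect matrix to actin, 3 of 19 genes were at least 2-fold lower (15.8%, against 2.12% of all genes). The integrin activator FERMT2 (kindlin-2) had 995 under control siRNA and 357 under ZIC5 siRNA, a difference of -1.48. Vinculin (VCL), which reinforces the link to actin, had 1336 and 559, a difference of -1.26, and the scaffold NEDD9 had 226 and 87.1, a difference of -1.38 on 3 of 4 probe sets. Others were near zero or higher: ZYX at -0.17, TLN1 at 0.17, PXN at 0.34 and the focal adhesion kinase PTK2 at 0.42. Against 2.12% of all genes, 4 of 16 integrin subunits (25%) were at least 2-fold lower. These were ITGA4, which pairs with beta 1 to bind fibronectin and VCAM1, with 549 under control siRNA and 199 under ZIC5 siRNA, a difference of -1.47, and the laminin receptor subunit ITGA6 with 2409 and 939.6, a difference of -1.36. The beta subunits ITGB5 and ITGB8, which pair with alpha V, had 2474 and 971 and 5470.5 and 2412, differences of -1.35 and -1.18, with probe sets from -1.35 to -0.65 and from -1.18 to -0.10. ITGB3 was lower by a difference of -0.83, while their shared partner ITGAV differed by -0.11 and the common beta subunit ITGB1 by 0.08. The collagen and laminin receptor subunits ITGA2 and ITGA3 were on the other side, at 0.69 and 0.75.

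Over 27 matrix genes the median was -0.32, and 21 were lower. Of these, 5 were past the size rule (18.5% of the list, against 2.12% of all genes). None of the 27 was past it on the high side, but the list leaves out VCAN. The largest differences were at low intensities: the fibulin EFEMP1 had 54.6 under control siRNA and 14.3 under ZIC5 siRNA, a difference of -1.93, or -0.77 with intensities under 32 set to 32. The fibril-associated collagen COL12A1 had 207 and 71.1 and differed by -1.54, and the beaded-filament collagen COL6A3 had 105 and 50.9 and differed by -1.04. The basement membrane collagens COL4A2 and COL4A1 differed by -1.12 and -0.93, the latter on 1 of 2 probe sets, and the other COL4A2 probe set was at -0.26. At higher intensities, the laminin chains LAMA1 and LAMC1 had 995 and 584 and 1063 and 705, differences of -0.77 and -0.59. The most abundant matrix transcripts barely differed, with fibronectin (FN1) at -0.17, SPARC at -0.12 and tenascin C (TNC) at -0.07. The proteoglycan VCAN, a member of the 25 highest genes and not among the 27 listed, went the other way. It had 109 under control siRNA and 287 under ZIC5 siRNA, a difference of 1.39, with 5 probe sets from 1.13 to 1.72.

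Among proteases and inhibitors, MMP8, a collagenase best known from neutrophils, had 1517 under control siRNA and 502 under ZIC5 siRNA, a difference of -1.60. The membrane-type protease MMP16 had 201 and 431 and was higher by 1.10, with 5 probe sets from 0.15 to 1.10. The sheddases ADAM10 and ADAM17 were at -0.81 and -0.52, the plasminogen activator PLAT at -0.96 and its inhibitor SERPINE2 at -0.84. The collagenase MMP1 had 450.5 and 324, a difference of -0.47, and MMP14 differed by -0.12. In the AXL programme, a set of transcripts that marks invasive melanoma, 13 of 17 genes were lower. The list median was -0.44, or -0.19 when each gene was read as the median of its probe sets. The list shares CCN1 with the YAP/TAZ list. The kinase NUAK1 had 88.9 under control siRNA and 20.7 under ZIC5 siRNA, a difference of -2.11, or -1.47 with intensities under 32 set to 32, and the receptor AXL had 56.4 and 38.9, a difference of -0.54 that 1 of 2 probe sets showed. Against this direction, the ligand WNT5A had 13.4 and 37.6, a difference of 1.49, or 0.23 with intensities under 32 set to 32, and the factor ZEB1 was at 0.86. Its relative ZEB2 was at -1.02, with 838 and 414 on the control and ZIC5 siRNA arrays and probe sets from -1.02 to -0.05.

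Chemokines that attract neutrophils were among the lowest genes. CXCL8 (interleukin 8) had 2818 under control siRNA and 351 under ZIC5 siRNA, 8.04-fold lower, and CXCL1 had 752 and 142, 5.31-fold lower. Next came CCL20, an attractant of lymphocytes and dendritic cells, with 414 and 223, a difference of -0.89. LIF, a cytokine of the interleukin 6 family, was higher by 0.76, and IL1B differed by -0.32. Only CXCL8 and CXCL1 passed the size rule among 12 analysed cytokines (16.7% lower, against 2.12% of all genes). Of the 23 listed, 11 were under the level minimum or not found. NF-kB is known to control CXCL8 and CXCL1. None of the 18 analysed NF-kB subunits and inhibitors reached 2-fold, beside 0.776% of all genes higher and 2.12% lower. That count is therefore not read as a result on the list. RELA was at 0.06, NFKB1 at -0.20, the inhibitor NFKBIA at -0.19 and TNFAIP3 at 0.31, and the list median was 0.02.

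Both chemokine promoters are shown because each holds the NF-kB letters GGAATTTCC once, in capitals. In the CXCL8 window, chr4:73740319-73740618, plus strand, the match starts 91 bases before the gene start, and in the CXCL1 window, chr4:73869143-73869442, plus strand, 78 bases before it.
CXCL8: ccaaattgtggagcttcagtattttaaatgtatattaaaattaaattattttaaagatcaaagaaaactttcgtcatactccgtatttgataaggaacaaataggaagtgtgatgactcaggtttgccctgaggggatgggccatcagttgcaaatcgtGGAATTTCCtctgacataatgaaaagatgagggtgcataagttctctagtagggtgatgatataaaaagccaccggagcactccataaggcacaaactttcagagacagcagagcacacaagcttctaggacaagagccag
CXCL1: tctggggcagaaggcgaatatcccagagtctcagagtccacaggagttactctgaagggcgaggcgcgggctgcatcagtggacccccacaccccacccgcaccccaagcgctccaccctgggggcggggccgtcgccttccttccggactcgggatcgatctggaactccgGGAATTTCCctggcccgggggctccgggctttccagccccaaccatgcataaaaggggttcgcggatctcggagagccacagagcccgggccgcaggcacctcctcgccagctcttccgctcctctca
These letters, sought on both strands, were in 0.472% of all promoters of the table and 0.4255% of those of analysed genes (RefSeq, GRCh38.p14). They were in 2 of 242 promoters of 2-fold lower genes, CXCL8 and CXCL1, and in 0 of 92 of 2-fold higher genes. CXCL3, whose promoter also held them, had 18.7 and 26.5 on the control and ZIC5 siRNA arrays, a difference of 0.51 at low intensity.

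Of 16 genes listed with STAT3 and the receptors that signal through it, 1 was at least 2-fold lower (6.25%, against 2.12% of all genes). OSMR, the oncostatin M receptor, had 346 under control siRNA and 91.3 under ZIC5 siRNA, a difference of -1.92, with 3 probe sets from -1.92 to -0.39. The shared receptor chain IL6ST differed by -0.24, with probe sets of both signs, and the kinase JAK1 by -0.34. STAT3 itself had 536 and 599, a difference of 0.16, its target and inhibitor SOCS3 was at -0.15, and SOCS2 was higher by 0.75.

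In the Wnt pathway, secreted antagonist and nuclear factor went opposite ways. DKK1, which blocks the LRP co-receptors, had 2097 under control siRNA and 299 under ZIC5 siRNA, 7.02-fold lower. LEF1, which carries the beta-catenin signal to DNA, had 2300.4 under control siRNA and 5203 under ZIC5 siRNA, a difference of 1.18, with 3 probe sets from 0.30 to 1.51. Both were well above the level minimum. The receptor FZD2 was at -1.28 and the co-receptor LRP5 at -0.74, while FZD7, FZD5 and the receptor ligase RNF43 were higher by 0.69, 0.55 and 0.65. The common read-out gene AXIN2 was at 0.20, with probe sets of both signs, and beta-catenin (CTNNB1) at -0.25. Over 23 genes 16 were higher, with a median of 0.11. At the size rule 2 were higher and 2 lower (8.70% each, against 0.776% and 2.12% of all genes). The higher gene beside LEF1 was WNT5A, with 13.4 and 37.6 on the control and ZIC5 siRNA arrays. The WNT5A difference was 1.49, or 0.23 with intensities under 32 set to 32.

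Of 16 feedback inhibitors of ERK signalling, 1 passed the size rule, on the high side (6.25%, against 0.776% of all genes). It was SPRY4, an inhibitor of receptor signalling to ERK, with 592 under control siRNA and 1239 under ZIC5 siRNA, a difference of 1.07. PHLDA1 was higher by 0.89 on 5 of 6 probe sets, the ERK phosphatase DUSP6 by 0.85, and SPRED2 and SPRED1 by 0.82 and 0.61. Other feedback genes did not share this, with DUSP7 at -0.88, ERRFI1 at -0.37, DUSP5 at -0.12 and SPRY2 at 0.05, and the median over 16 was 0.14. Of the immediate early factors, EGR3 had 244 under control siRNA and 859.8 under ZIC5 siRNA, a difference of 1.82, while its relative EGR1 was at 0.45. FOS differed by 0.14, JUN by -0.47 and MYC by -0.04. ETV1, an ETS factor expressed in melanocytes, had 863 and 387, a difference of -1.16 on 3 of 4 probe sets. None of 20 genes listed with the receptor tyrosine kinases passed the size rule. The farthest were the neurotrophin receptor NGFR, of another receptor class, at -0.96 and FGFR1 at 0.75.

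Cell cycle genes were described by phase. Genes that drive G1/S and copy DNA were higher in 32 of 41 cases, against 6931 of 13794 for all genes. Their median was 0.28, and 2 were at least 2-fold higher (4.88%, against 0.776% of all genes). RRM2, the subunit of ribonucleotide reductase that limits deoxynucleotide supply, had 4088 under control siRNA and 8668 under ZIC5 siRNA, a difference of 1.08 against 0.45 on its other probe set. The activator E2F2 had 298 and 710.4 on the control and ZIC5 siRNA arrays, a difference of 1.26 against 0.58 on the second probe set. UHRF1, which maintains DNA methylation at replication, was higher by 0.86, thymidylate synthase (TYMS) by 0.76 and the replication clamp PCNA by 0.44. All 6 subunits of the MCM helicase were higher, between 0.28 for MCM5 and 0.64 for MCM6. The repressor E2F7 was the 1 member at least 2-fold lower (2.44%, against 2.12% of all genes), at -1.02, a sign that its other probe set did not share. Others lower were GINS1 at -0.59, CDK2 at -0.42 and cyclin A2 (CCNA2) at -0.22.

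Genes of G2 and mitosis were centred on zero. Of 36 genes, 18 were higher and 17 lower, 0 reached 2-fold, and the median was 0.00. The mitotic kinase PLK1 had 190.4 under control siRNA and 159.6 under ZIC5 siRNA, a difference of -0.26, FOXM1, which drives this set, was at -0.33, cyclin B1 (CCNB1) at -0.18 and the proliferation marker MKI67 at 0.10. The spindle protein PRC1 was the farthest, at 0.84. Of the inhibitors of cyclin-dependent kinases, CDKN1A (p21) had 156 under control siRNA and 319 under ZIC5 siRNA, a difference of 1.03, and CDKN1B (p27) had 482 and 966, a difference of 1.002. Cyclin D1 (CCND1) was at 0.51, cyclin D3 (CCND3) at -0.65 and the pocket protein RBL2 at -0.72. SKP2, which marks p27 for degradation and was added here after its value was seen, had 745 and 237, a difference of -1.65, with 3 probe sets from -1.65 to -0.16.

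Targets of p53 had a median of 0.26 over 20 genes. Only CDKN1A and SESN2 passed the size rule (10% higher, against 0.776% of all genes), and SESN2 also belongs to the ATF4 list. MDM2 was at 0.45, TIGAR at 0.61 and PLK3 at 0.55, while TP53I3 and RRM2B were at -0.55 and -0.33. Among death regulators, HRK, an activator of apoptosis, had 113 under control siRNA and 286 under ZIC5 siRNA, a difference of 1.34, with 3 probe sets from 0.34 to 1.34. BID, which relays death receptor signals to mitochondria, had 388 and 159.7, a difference of -1.28. The melanocyte survival factor BCL2A1 was at 0.48, MCL1 at 0.44 and PMAIP1 (NOXA) at 0.52, and the median over 22 was 0.08.

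Pigment cell identity differed little. Over 20 melanosome and pigment genes the median was -0.05, and 1 was at least 2-fold lower (5%, against 2.12% of all genes). This was ABCB5, a transporter that marks melanoma subpopulations. It had 1415 under control siRNA and 346 under ZIC5 siRNA, a difference of -2.03, with 4 probe sets from -2.03 to -0.52. CAPN3 and SLC45A2 were at -0.78 and -0.80, tyrosinase (TYR) at 0.36 and TYRP1 at -0.13. Over 20 neural crest factors the median was 0.01, and 1 was at least 2-fold higher (5%, against 0.776% of all genes), LEF1 at 1.18. The lowest was NGFR at -0.96. PAX3 was at 0.36, SOX4 at 0.84, the receptor MC1R at 0.83 and SOX5 at -0.91 on 1 of 2 probe sets.

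Some of the lowest genes belonged to lists of complexes in which few other members differed. At least 2-fold lower were 1 of 15 genes of translation termination and nonsense-mediated decay (6.67%). Among genes of mitochondrial quality and import they were 2 of 26 (7.69%). The share of all genes was 2.12%, so having few other members differ is not particular to these lists. The translation termination factor GSPT1 (eRF3a) had 2336 under control siRNA and 389 under ZIC5 siRNA, a difference of -2.59 on 3 of 4 probe sets, while its partner ETF1 (eRF1) was at 0.18 and the other genes of the list lay between -0.40 and 0.60. The prohibitin PHB2, which forms rings in the inner mitochondrial membrane with PHB1, had 2499 under control siRNA and 504 under ZIC5 siRNA, a difference of -2.31, whereas PHB1 had 1574 and 1619.5, a difference of 0.04. C1QBP, a matrix protein of mitochondria, had 3944 under control siRNA and 930.4 under ZIC5 siRNA, a difference of -2.08, with probe sets from -2.15 to -2.08. The other 24 genes of the list that holds PHB2 and C1QBP, on mitochondrial quality and import, lay between HSPD1 at -0.85 and 0.80, and 20 of them were within 1.5-fold. ETF1 and PHB1 were within 1.2-fold on the arrays on which GSPT1 and PHB2 were among the 25 lowest genes.

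Other members were nearer the size rule, 1 each among 27 proteasome subunits (3.70%), 30 cytosolic ribosomal proteins (3.33%), 20 enzymes of the TCA cycle and pyruvate (5.0%) and 28 initiation and elongation factors (3.57%). These shares are near the 2.12% of all genes, so the genes are given as single values and not as results on their lists. The proteasome subunit PSMA7 had 6063 under control siRNA and 2985 under ZIC5 siRNA, a difference of -1.02, and the other 26 proteasome subunits were all within 1.5-fold, from -0.53 to 0.28. The ribosomal protein RPL18 had 8715 and 4261, a difference of -1.03 on 2 of 3 probe sets, and the other 29 cytosolic ribosomal proteins lay between -0.18 and 0.26. SUCLG2, a subunit of succinyl-CoA ligase, was at -1.22, with its partners SUCLG1 and SUCLA2 at -0.10 and -0.10. EIF2S2, the beta subunit of the initiation factor eIF2, had 5424 under control siRNA and 2520.1 under ZIC5 siRNA, a difference of -1.11, with the alpha and gamma subunits EIF2S1 and EIF2S3 at -0.27 and 0.27 and the factor EIF5A at -0.95. None of 37 oxidative phosphorylation subunits and none of 29 mitochondrial ribosomal proteins reached 2-fold. In A375 the corresponding differences were -2.18 for GSPT1, -1.86 for PHB2, -1.76 for C1QBP, -1.98 for SELENOF, -1.03 for PSMA7, -1.04 for RPL18 and -0.49 for EIF2S2. SUCLG2 had an intensity of 1362 on the A375 control array and 340.4 on the A375 ZIC5 siRNA array.

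**Figure D3:**
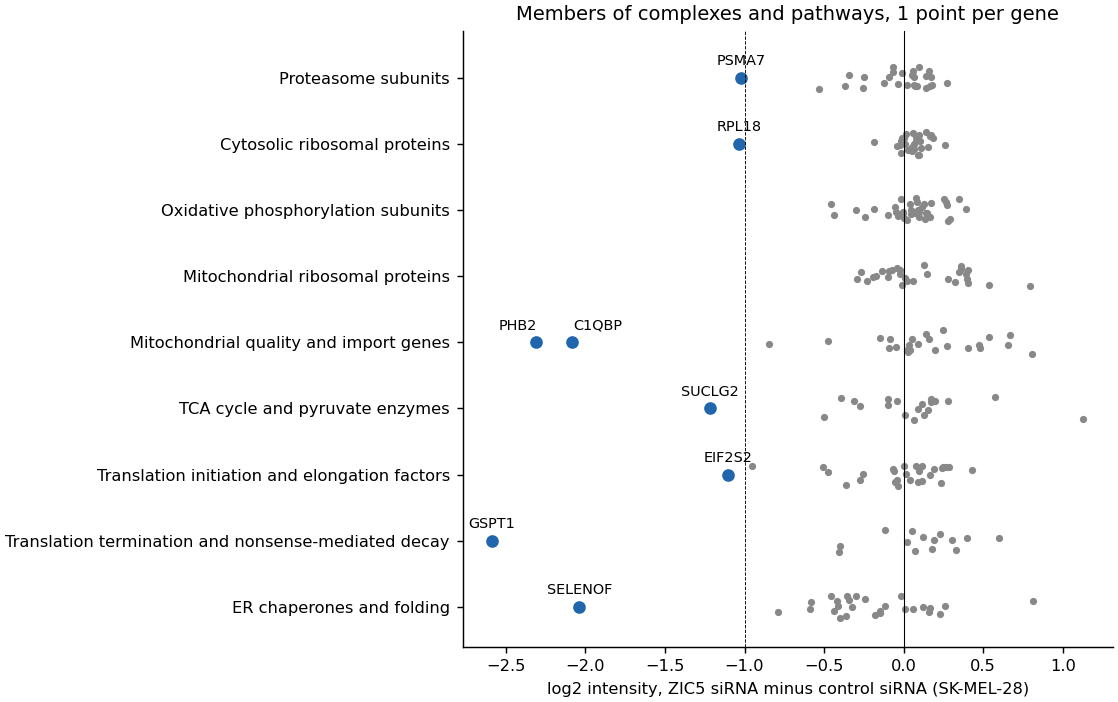
Log2 difference in SK-MEL-28, ZIC5 siRNA minus control siRNA, for every analysed member of 9 lists of complexes and pathways, 1 point per gene with vertical jitter for legibility and a dashed line at 2-fold lower. The labelled blue points are the 8 genes at least 2-fold lower, and in the proteasome and cytosolic ribosome rows the other members lie between -0.53 and 0.28.

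Metabolic and stress lists outside amino acid supply were mostly near zero, with single members apart. GPAM, which starts glycerolipid synthesis, had 98.2 under control siRNA and 317 under ZIC5 siRNA, a difference of 1.69, with probe sets from 1.53 to 1.69, while fatty acid synthase (FASN) was at -0.44 with probe sets of both signs. HMOX1, which breaks down haem and answers to NRF2 and ATF4, had 451 and 972, a difference of 1.11. NQO1, a core NRF2 target, was at 0.55, and the median over 25 NRF2 and glutathione genes was 0.12. Glycolysis and hypoxia genes had a median of 0.03 and cholesterol synthesis genes 0.03, with INSIG1, a sterol sensor partner, at 0.86.

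Many of the leading genes belonged to no list. Of the 107 higher genes 78, and of the 292 lower genes 250, were in none of the 56 lists. Among the 25 highest were RAB11FIP4, an effector of recycling endosomes, with 92.1 under control siRNA and 385 under ZIC5 siRNA, a difference of 2.06, with 3 probe sets from 1.65 to 2.06, and the Polycomb-related SCML4 with 251 and 996, a difference of 1.99. The retinaldehyde dehydrogenase ALDH1A3 had 1314 and 3750.5, a difference of 1.51. Less firm were ST8SIA4, a polysialyltransferase, at 1.97 on 3 of 4 probe sets but 0.52 with intensities under 32 set to 32, and NDE1 and FRMD8, at 1.497 and 1.37, for each of which 1 of 4 probe sets had that sign. Others of the 25 were AMMECR1, LBH, ATXN1 (on 3 of 4 probe sets), ISM1, TENT5C, WDR37, CADPS and IER5L, between 1.37 and 1.91. The other IER5L probe set was at 0.23, the other WDR37 probe set at 0.13 and the lowest CADPS probe set at 0.60.

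On the low side, TMEM255A had 374 under control siRNA and 54.8 under ZIC5 siRNA, a difference of -2.77. The lactonase PON2 had 3066 under control siRNA and 696 under ZIC5 siRNA, a difference of -2.14, and the kinase UHMK1 had 2936 and 755, a difference of -1.96, with 4 probe sets from -2.06 to -0.85. OCRL and INPP5A, phosphatases of inositol lipids and inositol phosphates, had 292 and 73.0 and 255 and 56.0, differences of -1.999 and -2.19, but the other probe set of INPP5A was at -0.01 and that of OCRL at -1.002. The palmitoyltransferase ZDHHC20 was at -2.28, KRCC1 at -2.38, the tight junction protein CLDN1 at -2.03, and the pentraxin PTX3 at -2.08, or -0.61 with intensities under 32 set to 32. PNMA2 and LOC101928419 were at -2.09 and -2.25, also with a ZIC5 siRNA intensity under 32, or -2.01 and -1.15 with such values set to 32. GPN2 and ELMOD2, at -2.11 and -1.96, had that sign on 1 of 2 and 2 of 4 probe sets.

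**Figure D4:**
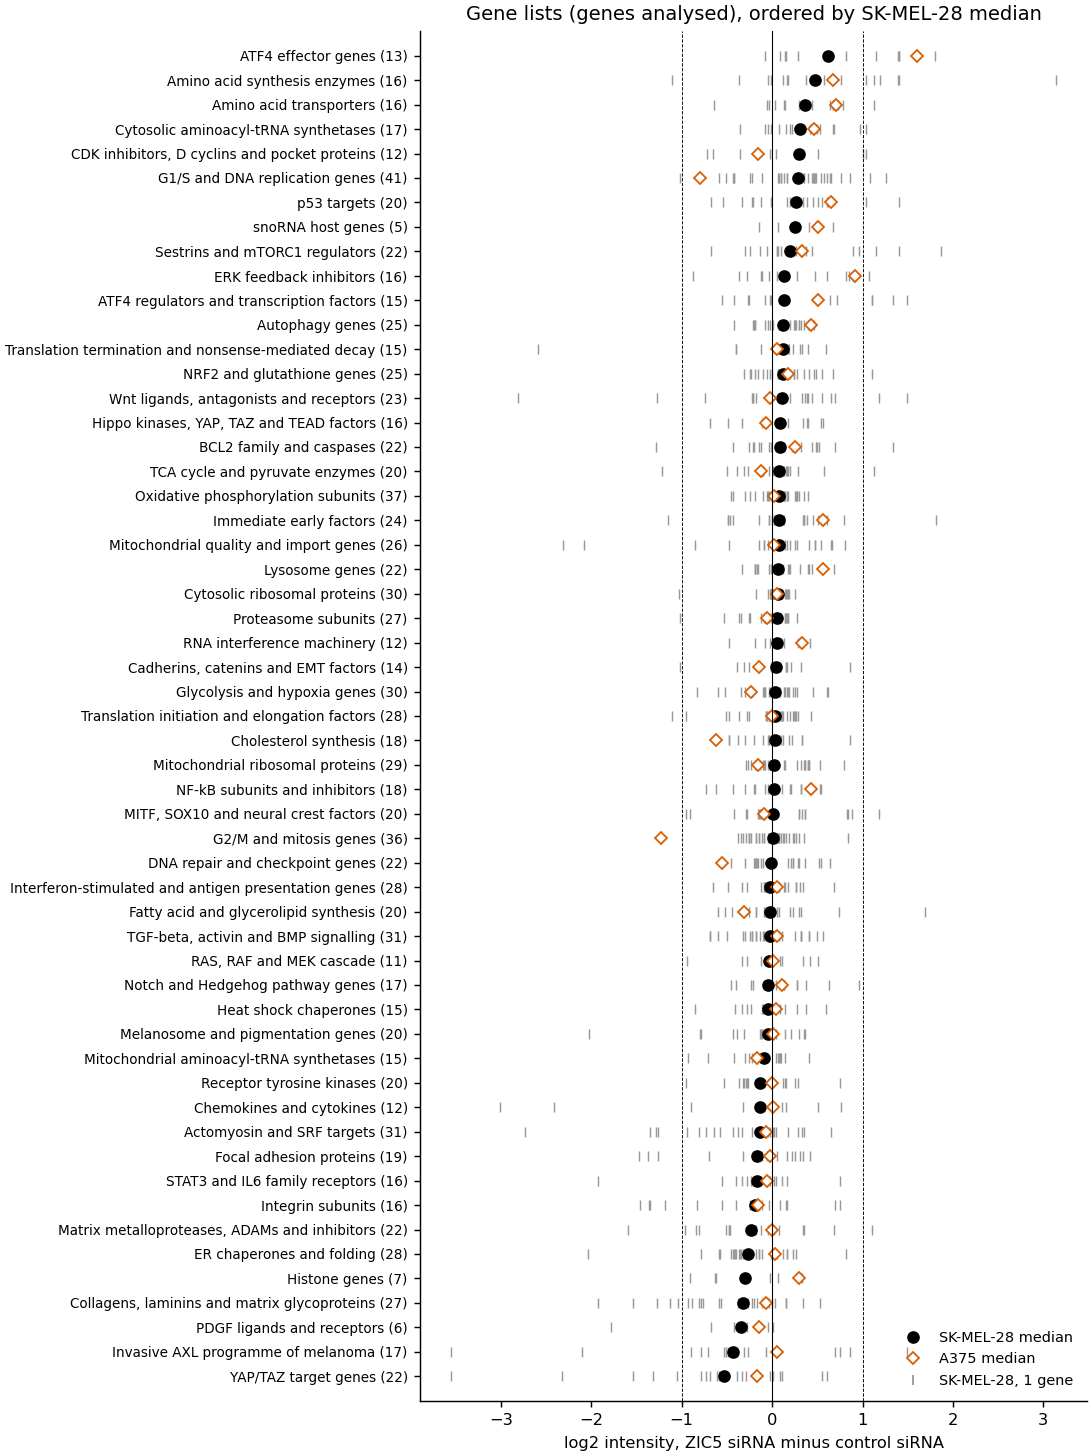
Log2 difference, ZIC5 siRNA minus control siRNA, for the lists with at least 5 analysed genes (number in brackets), ordered by the SK-MEL-28 median, with filled circles for the SK-MEL-28 median, open diamonds for the A375 median and a grey tick for each gene in SK-MEL-28. The ATF4 effector list has the highest SK-MEL-28 median (0.61) and the YAP/TAZ target list the lowest (-0.54), and the G1/S list stands at 0.28 in SK-MEL-28, with its A375 median at -0.80.

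The A375 arrays, with a control array of their own, were read beside these values. In A375 the size rule was passed by 537 higher genes (3.89%) and 697 lower genes (5.05%). Of the 107 genes 2-fold higher in SK-MEL-28, 91 were also higher in A375 (85.0%, against 48.5% of all genes), and 43 passed the size rule there, 40.2% of the SK-MEL-28 genes and 8.01% of those of A375. Of the 292 lower genes, 254 were also lower in A375 (87.0%, against 51.2% of all genes), and 159 passed, 54.5% of the SK-MEL-28 genes and 22.8% of those of A375. No difference between the lines was tested, as each line had 1 array a side.

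Some SK-MEL-28 differences had little counterpart in A375. CXCL1 had 0.01 in A375 against -2.41 in SK-MEL-28, OSMR had 0.06 and -1.92, CCN2 had 0.02 and -1.32, and ITGB8 had 0.25 and -1.18. On the high side E2F2 had -0.02 and 1.26. In all, 12 of the 107 higher and 30 of the 292 lower genes were within 1.2-fold in A375. The share of all genes within 1.2-fold in A375 was not counted, so these counts have no background beside them. For 2 of the higher and 5 of the lower ones, SCML4 among them, both A375 intensities were under 32, where a difference could not be seen. The median of the YAP/TAZ target list was -0.17 in A375 against -0.54 in SK-MEL-28. Some of its members were lower in A375 as well, with CCN1 at -1.22 and ANKRD1 at -2.45 there. Of the 22 genes, 4 were at least 2-fold lower in A375 and 2 at least 2-fold higher. The median of the AXL programme was 0.05 in A375 against -0.44 in SK-MEL-28. For mitotic genes the medians were -1.23 in A375, where 30 of 36 were at least 2-fold lower, and 0.00 in SK-MEL-28. The ATF4 effector list had 1.60 and 0.61, on the same side in both lines.

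**Figure D5:**
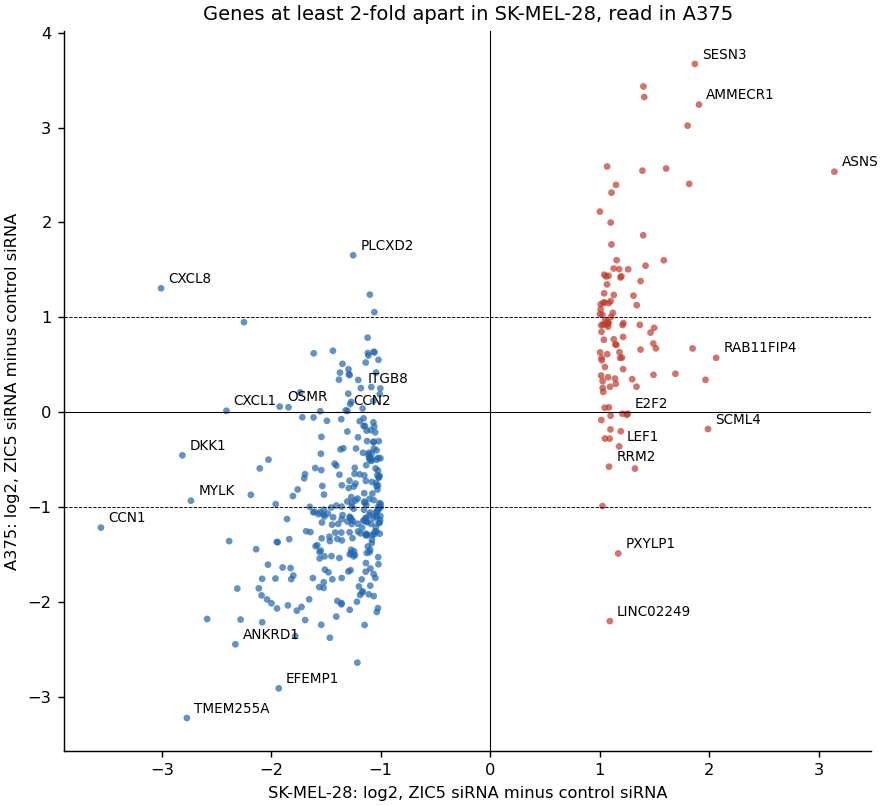
Log2 difference, ZIC5 siRNA minus control siRNA, in SK-MEL-28 (horizontal) and A375 (vertical) for the 107 genes at least 2-fold higher (red) and the 292 at least 2-fold lower (blue) in SK-MEL-28, 1 point per gene, with dashed lines at 2-fold in A375. Most red points lie above zero in A375 (91 of 107) and most blue points below it (254 of 292), and CXCL8 and PXYLP1 are among the exceptions.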

How the data were processed

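RNA from 4 cultures, 1 per group, was hybridised to HG-U133 Plus 2.0 arrays, and samples were grouped by the labels. The deposited values are linear intensities, 1 for each probe set on each array. According to the submitters' processing notes they come from RMA and Affymetrix Expression Console. The version of either is not given in the sources used here. RMA normalises the arrays to a common distribution, so a shift of all transcripts cannot be read. Here log2 was taken in Python 3.11.15 with pandas 2.3.3, numpy 2.4.6 and statsmodels 0.14.6. Of 54613 probe sets, 41091 named 1 gene in the platform annotation of 2016, 1801 named several and were left out, and 11721 named none. By Entrez ID, 41037 matched RefSeq (GRCh38.p14) and 54 did not. The script that applies the 2-fold rule was run on simulated data with known differences. The number of arrays sets the precision.

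The genes named are the ZIC and PDGF lists, the 25 highest and 25 lowest differences, and members of 56 gene lists in order of size of difference. The members, lists and alternatives were chosen with earlier results of these data known, and the lists hold 1297 genes with 5 marker lists, of which 1099 were analysed. Others are not analysed here. Promoters are the first listed start per gene in the RefSeq table, searched on both strands.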

Additional observations from a re-analysis of the deposited data

Results flagged for a closer look

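A few differences were in opposite directions in the lines, each at least 2-fold, with 1 array a side. For CXCL8 the difference was -3.01 in SK-MEL-28 against 1.31 in A375. Its A375 intensities were 331 under control siRNA and 818 under ZIC5 siRNA. IL17RD, an inhibitor of growth factor signalling, had -1.10 and 1.24, the phosphodiesterase PDE2A had -1.06 and 1.05, and PLCXD2 had -1.25 and 1.65. On the high side in SK-MEL-28, LINC02249 had 1.09 and -2.20, and PXYLP1, a phosphatase of proteoglycan synthesis, had 1.17 and -1.49. With intensities under 32 set to 32, PLCXD2 had 0.00 and PDE2A -0.63 in SK-MEL-28, and LINC02249 had -0.73 in A375. The medians of 23 of the 56 lists were on opposite sides of zero in the lines, and 2 of these were at least 0.25 from zero in both. G1/S and DNA replication genes had 0.28 in SK-MEL-28 and -0.80 in A375, and histone genes, with 7 analysed, had -0.30 and 0.29. None of these differences between lines was tested.

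Outside the named genes, 3820 probe sets with no gene name in the annotation reached the level minimum. By the 2-fold rule 43 of these 3820 were higher and 37 lower in SK-MEL-28, beside 107 and 292 of the 13794 analysed genes (0.776% and 2.12%). No control array bears on these counts beyond the 1 used for the difference.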

How the results depend on the processing

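With 1 array a side, no setting replaces a replicate. No paired analysis was possible because the SK-MEL-28 difference rests on 1 array a side. A fit with the line as a block would describe a difference common to both lines and was not run. The alternatives were no level minimum, a minimum of log2 7, the minimum over the SK-MEL-28 arrays, intensities under 32 set to 32, the median of probe sets, centring, loess on level and other size rules. At 1.5-fold, 580 genes were higher and 884 lower, and at 3-fold 12 and 59. With a minimum of 7, 188 were lower. List medians that moved by more than the spread used were, at a minimum of 7, ZIC 0.23, ATF4 effectors 0.81, integrins -0.56, chemokines -0.32, Wnt 0.37 and histones -0.020, while ATF4 regulators changed sign to -0.016. With no minimum they were ZIC -0.28, amino acid synthesis 0.29 and histones -0.020, and with the SK-MEL-28 minimum amino acid synthesis was 0.67. With intensities under 32 set to 32, PDGF was -0.18 and YAP/TAZ targets -0.36. With the median of probe sets, YAP/TAZ targets were -0.37 and the AXL programme -0.19, and NDE1 (-0.18) and FRMD8 (-0.028) changed sign. The causes were not tested. The medians of the 56 lists and the differences of 58 genes were read under each setting that kept them. Of these readings, the other 376 of list medians and 351 of gene differences moved by less than 0.15, the median SD over probe sets. Another 24 readings of gene differences moved by more. Among the counts, 13 readings stayed within 1.5 times, such as 72 higher genes (68 shared) with the median of probe sets. Beyond the reversals above, 22 values over 14 list medians, all within 0.09 of zero at first, and 2 of PDGFA changed sign.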

Other observations

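Other groups of SK-MEL-28 transcripts were close to zero. The median was 0.12 for 25 autophagy genes and 0.06 for 22 lysosome genes, with 0 at least 2-fold in either, and lysosomal acid lipase (LIPA) was the highest of the latter at 0.68. Interferon-stimulated and antigen presentation genes had -0.02 over 28, from IFIT3 at -0.65 to the RNA sensor IFIH1 at 0.68. The machinery of RNA interference, which the siRNA itself uses, had 0.05 over 12, with AGO2 at -0.48 and AGO3 at 0.42. In the TGF-beta, activin and BMP list the median was -0.02 over 31, with the inhibitor SKIL at -0.69 and ID2 at 0.57, and in the Notch and Hedgehog list HEY1, a Notch target, had 2025 and 3953 on the control and ZIC5 siRNA arrays, a difference of 0.97.

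Further genes outside the lists were picked after their values were seen and support no group. The tight junction proteins CLDN12 and CLDN14 had differences of -1.57 and -1.38 beside CLDN1 at -2.03. The actin regulator ENAH had 1772 under control siRNA and 459 under ZIC5 siRNA, a difference of -1.95, with 5 probe sets from -1.95 to -0.27. The integrin-associated tetraspanin CD151 was at -1.55, the focal adhesion adaptor TGFB1I1 (Hic-5) at -1.68 and the caveolar protein CAVIN3 at -1.44. PSMD10, a chaperone of proteasome assembly, had 1366 and 414, a difference of -1.72. The MBTPS2 protease, which cuts ATF6 and SREBP, had 1485 and 484, a difference of -1.62, with probe sets from -1.62 to -0.55. On the high side, the haematopoietic factor MYB had 71.0 and 152 and the Polycomb proteins CBX7 and CBX6 differed by 1.07 and 1.01.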
